A study of Mus musculus with 4 samples.

Results

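A group of 6 hematopoietic stem cell (HSC) regulators were followed here in Meis1-deficient and control LSK cells: the transcription factors *Mecom* (also written *Evi1*), *Prdm16*, *Etv6*, *Gfi1* and *Gfi1b*, and *Ndn*, which encodes the growth suppressor Necdin. They were taken by gene name, as every non-control probe of the arrays that carries one of these symbols. This gave 6 genes of 21344 with a symbol and 9 probes of 41174, namely 3 for *Mecom*, 2 for *Etv6* and 1 for each of the others, and no probe was named *Evi1*. LSK cells, sorted from bone marrow as lineage-negative cells with both Sca-1 and c-Kit on their surface, comprise the HSCs and the multipotent progenitors next to them.

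RNA came from *Mx1-Cre*+ *Meis1* fl/fl mice (Meis1-KO, arrays 1 and 2) and from Cre-negative *Meis1* fl/fl mice, which the labels call wild type (Meis1-WT, arrays 1 and 2). The mice were on a C57BL/6 background and 4 to 8 weeks old. The labels describe 4 intraperitoneal injections of poly(I:C) at 1.5 µg/g and 1-day intervals for both genotypes, while the microarray methods call the control mice sham-treated, so that an effect of poly(I:C) and one of the deletion cannot be told apart if the latter is right. Each array held amplified, Cy3-labeled RNA of several mice pooled 1 week after the last treatment. *Mx1-Cre* is switched on by interferon and is not limited to HSCs, and the floxed exon encodes the homeodomain. RNA of sorted cells was measured in bulk, so fewer cells of a type and less RNA per cell cannot be told apart.

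These genes have separate roles in HSCs. Mecom and Prdm16 are zinc finger proteins of the PR domain family that act on chromatin and are known for keeping HSCs in a self-renewing state. Etv6 is an ETS family repressor needed for HSCs to survive in adult bone marrow. Gfi1 and Gfi1b are closely related zinc finger repressors that recruit the histone demethylase Kdm1a and its partners to DNA, with Gfi1 known for restraining HSC proliferation and for granulocyte development and Gfi1b for erythroid and megakaryocyte development. Necdin, from an imprinted gene, is a MAGE family protein linked to HSC quiescence.

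The array read each gene through 60-base probes, and their positions are given on mm9 as the array's annotation states them, without exon or untranslated region boundaries. The 3 *Mecom* probes lay on the minus strand of chromosome 3, at chr3:29850924-29850983 (A_52_P418901), chr3:29876185-29876244 (A_51_P482148) and chr3:30135688-30135747 (A_51_P437349). The first pair belonged to a record of transcript variant 1 and the third, 285 kb farther along the chromosome, to one of variant 2. They are shown because they read different parts of one locus, A_51_P482148 whole and the others by bases 16 to 45 alone, in lower case with no base marked.
Mecom A_52_P418901: actgtaccactaatacaatgtttgccaaat
Mecom A_51_P482148: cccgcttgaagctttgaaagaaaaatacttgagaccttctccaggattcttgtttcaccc
Mecom A_51_P437349: atatctgcttagctttatgtagaagtgaat

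For *Prdm16*, *Etv6*, *Gfi1* and *Gfi1b* the same middle stretch is given, to show which part of a transcript each whole 60-base probe was drawn around. The *Prdm16* probe was assigned to the minus strand of chromosome 4 with a recorded position of only 5 bases (chr4:153690234-153690238). The *Etv6* probes were on the plus strand of chromosome 6, 2875 bases apart, at chr6:134219333-134219392 (A_52_P127358) and chr6:134216458-134216517 (A_52_P597800). *Gfi1* was read at chr5:108145852-108145911 and *Gfi1b* at chr2:28464982-28465041, both on the minus strand.
Prdm16 A_51_P514139: gaaagaggaaatcggaaagacgtgggcaag
Etv6 A_52_P127358: agataagaatgtcactccagctgacatcta
Etv6 A_52_P597800: aggaagagacccgggaatagcagggacact
Gfi1 A_51_P200262: aaatccagcttttattgttaggtgggactt
Gfi1b A_51_P370678: agcctgctcctatcagttgatgtaaatgta

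*Ndn* was read at chr7:69493847-69493906 on the plus strand, and its probe is given whole.
Ndn A_52_P451644: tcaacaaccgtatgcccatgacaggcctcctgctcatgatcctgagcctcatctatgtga

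The arrays themselves differed before any genotype was compared. The second Meis1-KO array was the dimmest, with 49.2% of its spots well above background against 54.7% to 57.4% on the others. Across probes its r with the remaining arrays was 0.891 to 0.916, whereas those arrays reached 0.956 to 0.967 with each other. Slide 1 carried the first replicates and slide 2 the second ones. *Meis1*, the targeted gene, was read by 2 probes, which were lower in Meis1-KO cells by 0.997 and 1.70 on the log2 scale with non-overlapping genotypes. Neither passed the criteria below with genotype alone, and the second (A_52_P26195) did with the slide as a block (unadjusted p = 0.0098 by limma), a call that includes a Meis1-KO spot not well above background on array 2. The position of the probes relative to the deleted exon was not analysed here. The LSK markers *Kit*, *Ly6a*, *Cd34*, *Slamf1*, *Procr*, *Cd48* and *Ptprc* were well above background on all 4 arrays.

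At each tested probe of these regulators, the arrays of the 2 genotypes overlapped. The criteria of the study, more than 2-fold at an unadjusted p under 0.01, were met in the limma fit by 0 of the 8 tested probes, against 0.736% of all 22007 tested probes. With the slide as a block it called 0 of 8, against 1.99% of all. The smallest unadjusted p among the 8 was 0.330 (0.208 with the block), and their Benjamini-Hochberg adjusted p over all tested probes lay between 0.983 and 0.998. In 0 of the 8 did the Meis1-KO arrays lie apart from the Meis1-WT arrays, while the genotypes did not overlap at 26.8% of all tested probes.

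Most of the regulator probes were split between the 2 slides. Against the Meis1-WT array of the same slide, 2 of 8 probes were lower in Meis1-KO cells on slide 1 (46.7% of all tested probes were) and 8 of 8 were lower on slide 2 (44.0% of all). Their median log2 difference was 0.18 on slide 1 and -0.66 on slide 2, where all tested probes had medians of 0.025 and 0.13. The mean of both slides was therefore below 0 for 8 of 8 probes (43.7% of all tested probes), with a median of -0.37. Lower on both slides were 2 of 8 (21.0% of all), those of *Gfi1* and of *Mecom* A_51_P482148. Without the second Meis1-KO array, *Gfi1* and *Gfi1b* stayed below 0 and the other 6 did not. For *Gfi1* the larger difference was on slide 1.

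**Figure D1:**
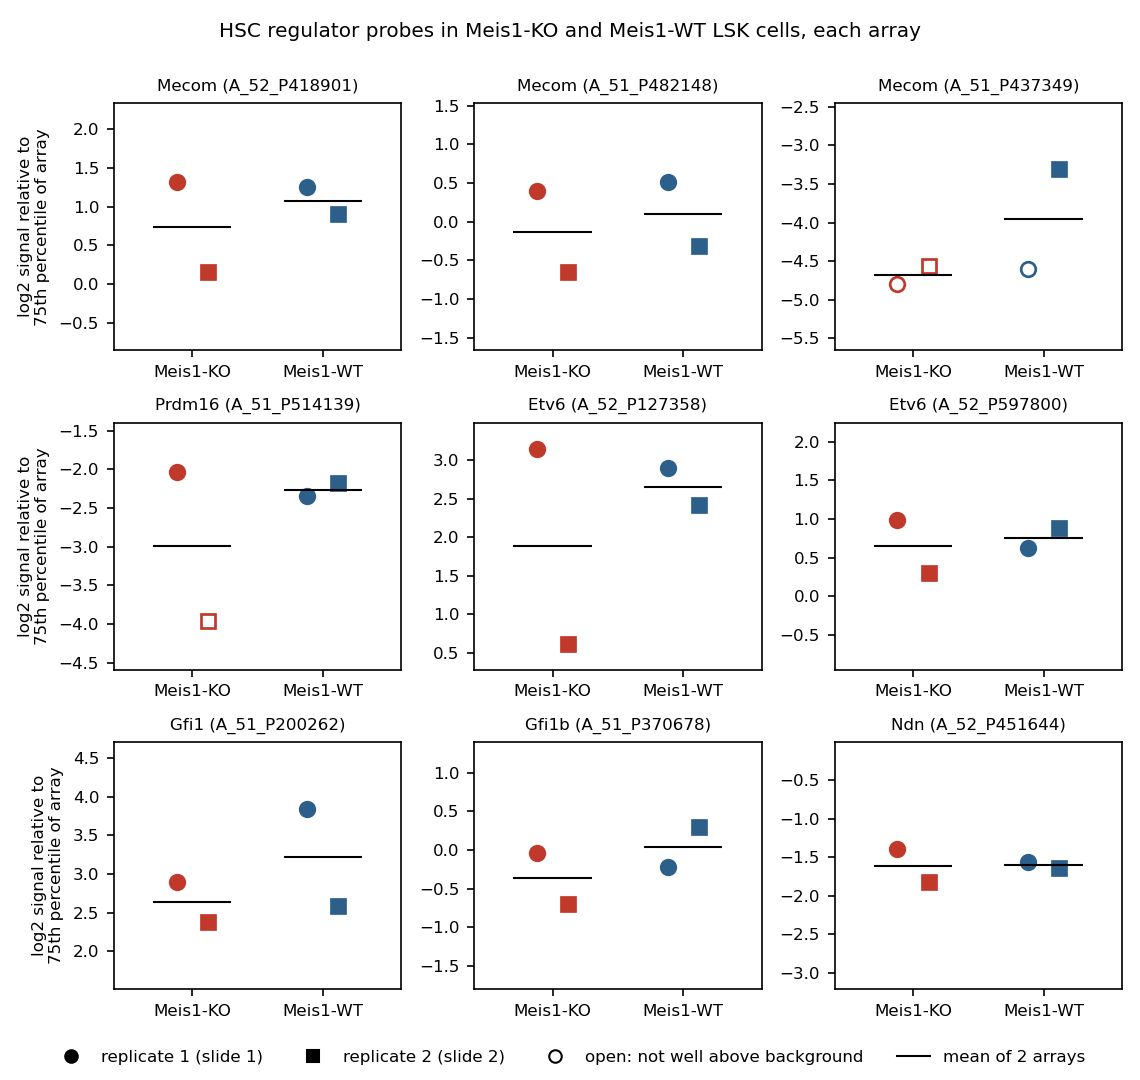
Log2 signal of each of the 9 probes relative to the 75th percentile of its array (vertical axis, a span of 3.2 log2 units in every panel) in Meis1-KO and Meis1-WT LSK cells, with circles for replicate 1 (slide 1), squares for replicate 2 (slide 2), open marks for spots not well above background and bars for the mean of 2 arrays. The second Meis1-KO array (red square) was the lowest of the 4 at all probes but the third *Mecom* probe, and the genotypes overlapped in every panel of a tested probe.

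*Mecom* was the gene with most probes. All values below are log2 signals relative to the 75th percentile of the array, and differences are Meis1-KO minus Meis1-WT on that scale, with a standard error from limma. At its brightest probe, A_52_P418901, the level was 1.32 and 0.16 in Meis1-KO arrays 1 and 2 and 1.25 and 0.90 in Meis1-WT arrays 1 and 2. One Meis1-KO array was the highest of the 4 and the other the lowest. The means were 0.74 ± 0.82 (SD, n = 2) and 1.07 ± 0.25 (SD, n = 2), which differ by -0.33 ± 0.54 (standard error, limma adjusted p = 0.983) or 0.793-fold with a 95% interval of 0.318 to 1.98.

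The second *Mecom* probe, A_51_P482148, had levels of 0.39 and -0.65 in Meis1-KO cells and 0.52 and -0.31 in Meis1-WT cells. Both arrays of slide 2 were below both arrays of slide 1, so that the slides were farther apart than the genotypes. Meis1-KO minus Meis1-WT was -0.24 ± 0.56 (standard error, limma adjusted p = 0.983). It was -0.13 on slide 1 and -0.34 on slide 2.

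The third *Mecom* probe, A_51_P437349 on the variant 2 record, was well above background on 1 of 4 arrays and was not tested. Its levels were -4.80 and -4.56 in Meis1-KO cells and -4.61 and -3.31 in Meis1-WT cells, where the value of -3.31 on the second array was the one above background. The Meis1-WT mean of -3.96 was below the bound that the dimmest detected signals of the Meis1-KO arrays allow (-3.73), so no fold can be given.

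*Prdm16*, the close relative of *Mecom*, was dim. Its levels were -2.03 and -3.95 in Meis1-KO cells and -2.34 and -2.18 in Meis1-WT cells, and the Meis1-KO value of -3.95 was not well above background. The first Meis1-KO array was thus the highest of the 4 and the second the lowest, 1.93 apart, while the Meis1-WT arrays were 0.16 apart. The mean difference came to -0.73 ± 0.69 (standard error, limma adjusted p = 0.983), made of 0.31 on slide 1 and -1.77 on slide 2. After normexp background correction, which treats dim signals in another way, it was 0.15.

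*Etv6* showed the widest gap between arrays of one genotype. At A_52_P127358 the level was 3.15 and 0.62 in Meis1-KO cells and 2.89 and 2.42 in Meis1-WT cells. In signal before scaling, these were 1314 and 139 in Meis1-KO cells and 1090 and 822 in Meis1-WT cells, so the second Meis1-KO array alone stood apart. Its difference, -0.77 ± 0.84 (standard error, limma adjusted p = 0.983), corresponds to 0.586-fold with a 95% interval of 0.142 to 2.42. Slide 1 gave 0.25 and slide 2 gave -1.80.

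The other *Etv6* probe did not repeat that size. A_52_P597800 had levels of 0.99 and 0.30 in Meis1-KO cells and 0.63 and 0.88 in Meis1-WT cells. The Meis1-KO arrays were again the highest and the lowest of the 4, but 0.69 apart here against 2.53 at the first probe. Here the genotypes differed by -0.11 ± 0.47 (standard error, limma adjusted p = 0.990), with 0.36 on slide 1 and -0.58 on slide 2. The probes of *Etv6* belong to 1 RefSeq record and therefore do not count as separate genes.

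*Gfi1* had its widest gap between the control arrays. The level was 2.90 and 2.38 in Meis1-KO cells and 3.84 and 2.59 in Meis1-WT cells. Both Meis1-KO arrays were below the Meis1-WT array of their own slide, by 0.94 and 0.21, but the second Meis1-WT array was below the first Meis1-KO array. Averaged, this was -0.57 ± 0.57 (standard error, limma adjusted p = 0.983), which is 0.672-fold with a 95% interval of 0.258 to 1.75. Without the first Meis1-WT array it was 0.051.

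*Gfi1b* had levels of -0.04 and -0.70 in Meis1-KO cells and -0.23 and 0.30 in Meis1-WT cells. The order was mixed, with the second array of each genotype at the 2 ends. Meis1-KO minus Meis1-WT was -0.40 ± 0.48 (standard error, limma adjusted p = 0.983), from 0.19 on slide 1 and -0.997 on slide 2. Among the 8 tested probes this was the only one that stayed below 0 in all 14 alternatives, between -0.74 and -0.072, and it was called in none of them.

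*Ndn* had the smallest mean difference and the smallest gaps between arrays of the 8 tested probes. Its levels were -1.40 and -1.82 in Meis1-KO cells and -1.56 and -1.64 in Meis1-WT cells, with both controls between the Meis1-KO arrays. The means were -1.61 ± 0.30 (SD, n = 2) and -1.60 ± 0.060 (SD, n = 2). Their difference was -0.0088 ± 0.44 (standard error, limma adjusted p = 0.998). Its 95% interval of 0.477- to 2.07-fold includes a change of 2-fold in either direction, which these arrays could not tell from none. The sign of this difference turned in 5 of 14 alternatives.

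**Figure D2:**
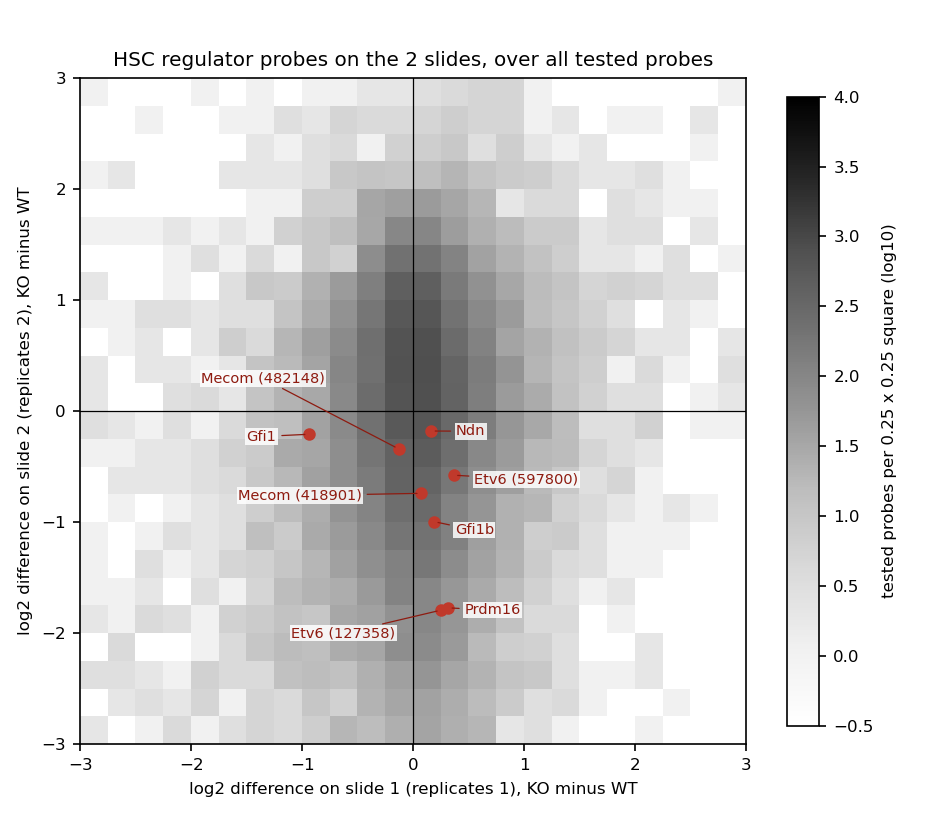
Log2 difference between Meis1-KO and Meis1-WT on slide 1 (horizontal) and on slide 2 (vertical) for the 8 tested probes (red points, with the last digits of the probe name where a gene has 2) over the number of all 22007 tested probes in each square (grey, log10 scale). All 8 points lay below 0 on slide 2 and 6 of them lay above 0 on slide 1, and the axes leave out 538 probes whose difference was over 3 in size on either slide.

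Set side by side, the regulators differed in how far the pooled samples of a genotype agreed. The gap between the Meis1-KO arrays had a median of 0.86 over the 8 probes against 0.71 over all tested probes, and that between the Meis1-WT arrays was 0.41 against 0.37. *Etv6* A_52_P127358 and *Prdm16* had the widest gaps between Meis1-KO arrays, and *Gfi1* the widest between Meis1-WT arrays, at 1.25. The standard errors of the 8 differences ran from 0.44 for *Ndn* to 0.84 for *Etv6*, so that the 95% intervals of all 8 contained both 0 and a 2-fold reduction.

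**Figure D3:**
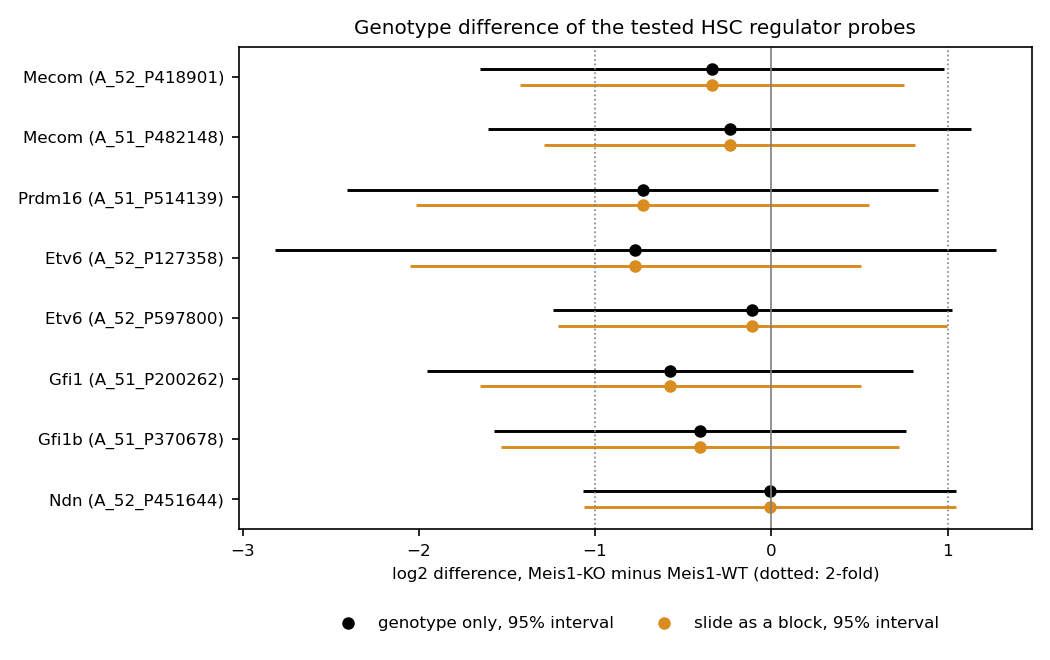
Log2 difference between Meis1-KO and Meis1-WT LSK cells (horizontal, dotted lines at 2-fold) for the 8 tested probes, with 95% intervals from limma with genotype alone (black) and with the slide as a block (orange). Every interval of both fits crosses 0.

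The block narrowed most intervals without changing a call. For *Etv6* A_52_P127358 the standard error fell from 0.84 to 0.57 and the 95% interval became 0.242- to 1.42-fold (adjusted p = 0.958 by limma). For *Prdm16* it became 0.247- to 1.47-fold, for *Gfi1* 0.318- to 1.42-fold and for *Gfi1b* 0.345- to 1.65-fold. The *Ndn* interval was hardly moved, at 0.478- to 2.07-fold.

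A single array decided the size and often the sign of these differences. Without the first Meis1-KO array, which leaves the dim second one alone against both controls, *Prdm16* stood at -1.69 and *Etv6* A_52_P127358 at -2.03, and the fit called these 2 of 8 probes, as it did 10.1% of all tested probes (adjusted p = 0.082 and 0.066 by limma). The *Prdm16* call does not stand, because its 1 remaining Meis1-KO spot was not well above background and only a bound of at least 1.98-fold, short of 2-fold, is known. Without the second Meis1-KO array, 2 of 8 probes were lower in Meis1-KO cells, those of *Gfi1* and *Gfi1b*, and *Etv6* A_52_P127358 was 0.49 higher. Without the first Meis1-WT array, 5 of 8 were lower. With 1 array left in a genotype, limma takes that array to vary like the other genotype's.

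**Figure D4:**
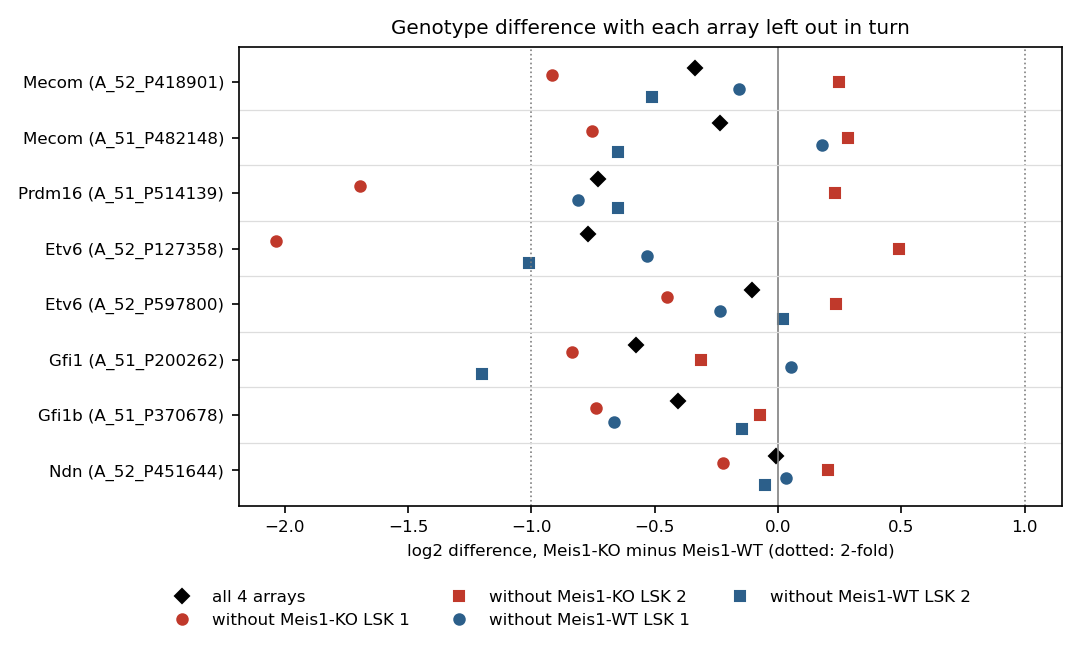
Log2 difference between Meis1-KO and Meis1-WT LSK cells (horizontal, dotted lines at 2-fold) for the 8 tested probes with all 4 arrays (black diamonds) and with each array left out in turn (red for Meis1-KO, blue for Meis1-WT, circles for replicate 1 and squares for replicate 2). The differences of *Prdm16* and *Etv6* A_52_P127358 spread from -1.69 to 0.23 and from -2.03 to 0.49.

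RNA of marker genes of other cell types was read on the same arrays, although the lineage gate of the study (CD3, B220, CD11b, TER119 and Gr-1) is meant to remove such cells, megakaryocytes aside. Of 7 megakaryocyte markers, 6 were tested and 6, 7, 6 and 7 were above background on Meis1-KO arrays 1 and 2 and Meis1-WT arrays 1 and 2. Their summed signal, in units of the 75th percentile, was 10.2 and 12.9 in Meis1-KO cells and 10.7 and 36.6 in Meis1-WT cells, with the second Meis1-WT array, on the slide where the regulators were lower in Meis1-KO cells, far above the other 3. Of 7 erythroid markers, 6 were tested, with sums of 101 and 247 in Meis1-KO cells and 89.5 and 26.7 in Meis1-WT cells and between 5 and 7 above background. One gene, *Hbb-b1*, made up 82.2% to 98.5% of those sums, and of the 6 tested markers 4 were lower and 2 higher in Meis1-KO cells, with a median of -0.18. The 10 granulocyte and monocyte markers, 8 of them tested, gave sums of 169 and 117 in Meis1-KO cells and 181 and 60.4 in Meis1-WT cells, with 7 to 10 above background, and 1 of them, *Elane*, was called lower in Meis1-KO cells. Of 6 T lineage markers, *Cd8a* and *Lck* were tested, both through the Meis1-WT arrays alone, since neither was well above background on the second Meis1-KO array. Their measured values were lower in Meis1-KO cells on both slides (median -0.94, 0 called), which that choice favors. The T lineage sums were 0.22 and 0.20 in Meis1-KO cells and 0.39 and 0.42 in Meis1-WT cells, with 1 to 3 of the 6 above background on an array. The part of this RNA in the differences of *Gfi1*, *Gfi1b* and the others was not tested.

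Relatives and partners of the regulators were read from lists, 1 main probe per gene. Among PR domain genes other than *Mecom* and *Prdm16*, 9 of 13 were on the array and 4 were tested. All 4 were lower in Meis1-KO cells, on both slides, with a median difference of -0.47 against 0.082 over all tested probes, and 0 met the study's criteria. Without the first Meis1-KO array the median was -0.54. The median was -0.12 after normexp, under which not all 4 were lower, and ran from -0.73 without the first Meis1-WT array to -0.20 without the second. *Prdm15* was lowest at -1.001 (standard error 0.74), from 0.16 and -1.93 in Meis1-KO cells and 0.36 and -0.13 in Meis1-WT cells, and *Prdm4* followed at -0.50. As at *Etv6*, most of the *Prdm15* difference was on slide 2, where it was -1.80.

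The ETS family, to which Etv6 belongs, had 14 of 19 genes tested, 10 lower and 4 higher, with a median of -0.07 and 0 past the criteria. The sign of that median was not stable, at 0.015 after median scaling, 0.030 without the second Meis1-KO array, 0.040 without the first Meis1-WT array and -0.34 without the second. *Ets1* was lower by 0.71 with a standard error of 0.42, at -0.28 and -0.31 in Meis1-KO cells and 0.41 and 0.42 in Meis1-WT cells. These arrays agreed within each genotype and did not overlap between them. *Fli1* was at -0.46, and the largest values above 0 were 0.66 for *Spi1*, the myeloid and lymphoid regulator PU.1, and 0.22 for *Elf1*. *Erg*, another ETS factor needed by HSCs, was at -0.021.

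Corepressors that these regulators bind were tested for 14 of 17 genes, 9 lower and 5 higher, with a median of -0.05 and 0 past the criteria. This median too changed sign, to 0.032 after median scaling, 0.10 without the second Meis1-KO array and 0.027 without the first Meis1-WT array, and was -0.24 without the first Meis1-KO array. The largest values above 0 were 0.82 for *Hmg20b* and 0.71 for *Hdac3*, and *Rcor3* was at -0.49. *Kdm1a*, the demethylase recruited by Gfi1 and Gfi1b, was at -0.33 with a standard error of 0.48, and *Ctbp1* and *Ctbp2*, which Mecom binds, were at -0.087 and -0.18.

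Genes described as targets of the regulators were all tested, 15 of 15, with 11 lower, 4 higher and a median of -0.16, which lay between -0.31 and -0.070 with each array left out and at -0.33 after quantile and -0.075 after median scaling. *Elane*, which encodes neutrophil elastase and is known to be repressed by Gfi1, was the one that met the criteria. Its level was -2.56 and -2.30 in Meis1-KO cells and -0.87 and -0.84 in Meis1-WT cells, so that the genotypes stood well apart. It is also 1 of the granulocyte markers above. They differed by -1.57 ± 0.42 (standard error), with an unadjusted p of 0.0094 and an adjusted p of 0.983 in the limma fit. *Elane* was still called in 7 of 14 alternatives, among them the slide as a block. Its difference ran from -1.70 to -0.49 over them. The 7 in which it was not called include median scaling, normexp, and leaving out the first Meis1-KO array or either Meis1-WT array.

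No other described target met the criteria with all arrays. *Egr1* was at -1.06 (standard error 0.96), made of -0.071 on slide 1 and -2.05 on slide 2. *Cdkn1a*, a cell cycle inhibitor repressed by Gfi1, was at -1.03 (standard error 0.90), and the largest value above 0 was the 0.66 of *Spi1*. *Gata2*, a gene that Mecom is known to activate, was at -0.11.

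Imprinted genes known from long-term HSCs were added for comparison with *Ndn*. Of 15 genes 11 were tested, 5 lower and 6 higher, with a median of 0.22. It was 0.096 and 0.061 without the first and the second Meis1-KO array, 0.045 without the first Meis1-WT array and -0.095 without the second. *Peg3* stood at -3.03 and -2.88 in Meis1-KO cells and was not well above background on either Meis1-WT array, so that it was at least 2.10-fold higher in Meis1-KO cells (adjusted p = 0.476 by limma). It was tested only because the Meis1-KO arrays passed the filter, and its p rests on Meis1-WT signals that were not well above background, so its calls support no more than the bound. A bound like this sets the brighter genotype's mean against the lowest signal that was well above background on each array of the other. After normexp the measured difference of *Peg3* was 0.64. The other 2 *Peg3* probes were not tested.

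*Dlk1*, a membrane ligand related to the Notch ligands, was called in the other direction on measured values that do not carry the call. It was not well above background on either Meis1-KO array and stood at -3.33 and -3.58 in Meis1-WT cells, at least 1.21-fold higher there (adjusted p = 0.983 by limma), a bound short of 2-fold. This call was kept in 4 of 13 alternatives and its sign turned after normexp, where the difference was 0.25. Next came *Mest* at -1.28 and *Igf2r* at -0.77 below 0, and *Plagl1* at 0.85 and *Snrpn* at 0.70 above it. *Mest* was not well above background on the second Meis1-KO array, nor *Snrpn* on the second Meis1-WT array. Each was tested only through the genotype where it was higher, so both sizes rest in part on a dim spot. On slide 1 they differed by 0.12 and 0.13.

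MAGE family relatives of Necdin were all tested, 6 of 6, with 2 lower, 4 higher and a median of 0.09. Leaving out an array moved it below 0 in 3 of 4 cases, to -0.0012 and -0.060 without the first and the second Meis1-KO array and -0.063 without the first Meis1-WT array, and it was 0.18 without the second, 0.25 after normexp and 0.33 with the filter on all 4 arrays. *Magee1* met the criteria, at -3.83 and -4.20 in Meis1-KO cells and -1.83 and -2.53 in Meis1-WT cells, with the second Meis1-KO array not well above background. This was -1.84 ± 0.47 (standard error, limma unadjusted p = 0.0078, adjusted p = 0.983), and the call was kept in 4 of 13 alternatives. After normexp the difference was -0.13. The size and the call thus rest in part on a spot near background, and the probe was tested only because both Meis1-WT arrays passed the filter. *Mageh1* was at -0.49, *Ndnl2* at 1.03 and *Magel2*, the neighbor of *Ndn* in the same imprinted domain, at 0.52. *Magee1* was lower on both slides and *Mageh1* was not. On the second Meis1-KO array 4 of these 6 genes were well above background, so sizes in this list rest in part on dim spots.

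**Figure D5:**
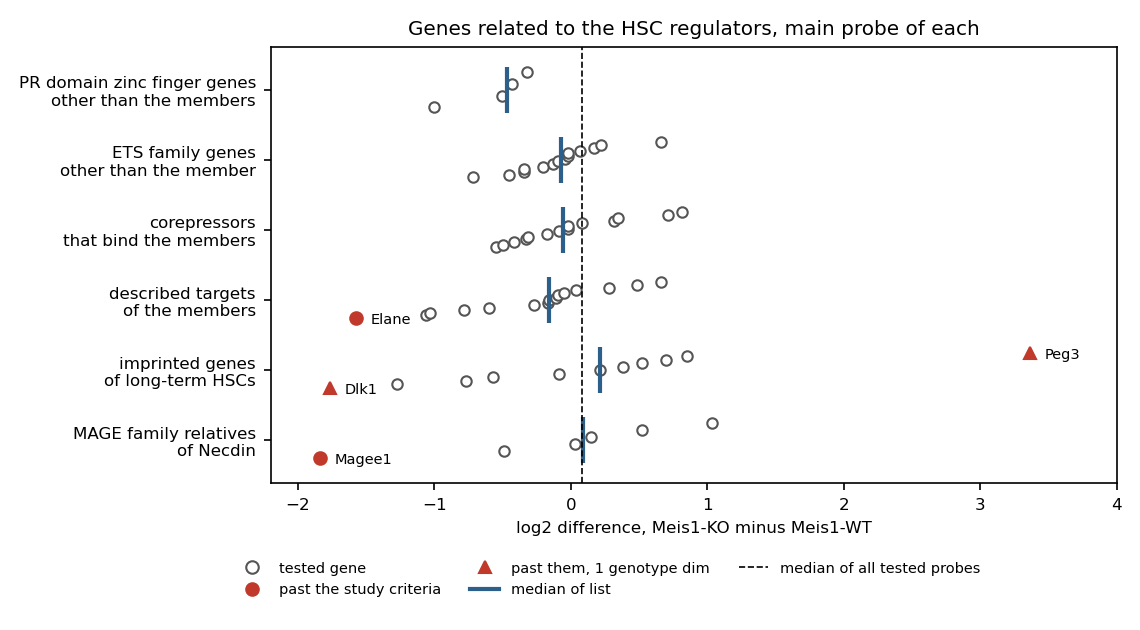
Log2 difference between Meis1-KO and Meis1-WT LSK cells (horizontal) for the main probe of each tested gene in 6 lists, with filled red marks for genes past the study's criteria (triangles where 1 genotype was not well above background on both arrays, so that the size plotted is the measured one and only a bound is known), blue bars for the median of a list and a dashed line for the median of all tested probes. *Elane*, *Dlk1*, *Magee1* and *Peg3* were the 4 genes past the criteria on measured values.

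The pattern over the 4 arrays was also compared with that of other genes, as a description with 4 points per gene and no test. Each probe's mean was subtracted and the root mean square difference taken over the 4 arrays, among 16924 probes of named genes that were well above background on all of them. Nearest to *Mecom* A_52_P418901 were *Yy1* (0.015), *Ddx54* (0.022) and *Zfr* (0.028). Nearest to *Etv6* A_52_P127358 were *Capn3* (0.041), *Gm8995* (0.044) and *Top1* (0.044), all with the second Meis1-KO array as their lowest. *Gfi1* was nearest to *Ablim1* (0.041), *Wdr45l* (0.046) and *Nbea* (0.089), *Gfi1b* to *Atad5* (0.024), *Lrpprc* (0.025) and *Cryab* (0.029), and *Ndn* to *Cfdp1* (0.014), *Tsga14* (0.017) and *Bdp1* (0.020). Only the brightest probe of each gene was compared, and *Prdm16* was left out, since its probe was not above background on all arrays. With so many probes and 4 arrays, near matches are found for almost any pattern.

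The promoters of the regulators were searched for short motifs on both strands. RefSeq (GRCm38.p6) gave 8 promoters for the 6 genes, each from 250 bases before to 50 after a transcript start, among 32851 in all. TGACAG, the core site of Meis proteins, was in 1 of 8, a *Mecom* promoter, and in 19.2% of all promoters. AAATCA, the core of the Gfi1 and Gfi1b site, was in 4 of 8, for *Mecom*, *Etv6*, *Gfi1b* and *Ndn* in 1 promoter each, and in 14.0% of all. TGATTNAT (Hox proteins), AGATAAGA (Evi1) and CCGGAAGT (ETS factors) were in 0 of 8 and in 3.22%, 1.02% and 3.89% of all. The share of C and G in the 8 promoters ran from 44.3% to 61% (median of all 52.7%) and their CpG count from 7 to 24 (median of all 7). These letters were read in a window of the genome, and no binding was measured.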

How the data were processed

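RNA of LSK cells from 2 Meis1-KO and 2 Meis1-WT pools was hybridized to 1-color 60-base arrays. The authors deposited spot intensity values of Feature Extraction (9.5.3.1 in the file headers, 9.1 in the submitters' processing notes), background-subtracted and corrected for trends inside an array, and a series table with the same intensities. Here control spots and outliers were dropped, repeated spots averaged, and the log2 of the deposited processed signal expressed relative to the 75th percentile of its array. Tested probes had a value on all 4 arrays and were detected well above background on both arrays of 1 genotype or of both. Genotype was the single term of a limma fit (version 3.58.1, R 4.3.3), which called probes at the study's thresholds (unadjusted p below 0.01, over 2-fold), and adjusted p by Benjamini-Hochberg over all tested probes. The fit was checked on simulated data with planted changes larger than any regulator difference and without slide effects. That check does not cover an array that deviates as the second Meis1-KO array does. Nothing says whether the pools are separate experiments, so p-values measure the spread between these pools. With 2 arrays per genotype an exact permutation test, two-sided, reaches no p lower than 0.333, and the number of arrays limits the precision.

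Replicate numbers are slides, by the file records, and the slide is a block in an alternative fit (same-numbered arrays deviated together, r = 0.266). Named were all probes of the 6 genes, *Meis1*, and from each list of related genes those past the thresholds and otherwise the 2 lowest and 2 highest. *Kdm1a*, *Ctbp1*, *Ctbp2*, *Gata2* and *Erg* were added for their known roles, after their values were seen. Some listed genes that the rule would name are not reported here. The brightest tested probe stood for a listed gene. The genes and lists were chosen with earlier results of these data known. Further marker lists were B lineage (3 of 8 tested, 0 called), T lineage (2 of 6, 0 called) and stroma and endothelium (3 of 6, *Cxcl12* called, lower in Meis1-KO). *Cxcl12* was tested only through the Meis1-WT arrays and was not well above background on either Meis1-KO array. Its call thus supports no more than a bound of at least 5.11-fold. Alternatives were normexp (offset 50), scaling by the median or by quantiles, the series table, dropping the filter on dim probes or asking for all 4 arrays, keeping outlier spots, the methods' t-test, the slide block, a trend of variance on intensity, and leaving out each array. Protein sequences were not analysed here.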

Additional observations from a re-analysis of the deposited data

How the results depend on the processing

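Over the alternatives, the 8 tested probes of *Mecom*, *Prdm16*, *Etv6*, *Gfi1*, *Gfi1b* and *Ndn* stayed uncalled except without the first Meis1-KO array, where the fit gave 2 calls, so that the count ran from 0 to 2 with an array left out. Of these, *Prdm16* rests on a spot not well above background (at least 1.98-fold) and *Etv6* A_52_P127358 does not. The number of probes lower in Meis1-KO cells, 8 with all arrays, ran from 2 to 8 with an array left out. The replicate block left 0 of the 8 called and changed no other call on them. Over all tested probes, 162 met the criteria, 437 with the replicate block, 49 after normexp, 294 with no filter on dim probes, 53 with a filter on all 4 arrays, 30 by the methods' t-test, 101 with an intensity trend and 107 to 2215 with an array left out.

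With an array left out, differences ran from -0.92 to 0.25 for *Mecom* A_52_P418901, -0.76 to 0.29 for A_51_P482148, -1.69 to 0.23 for *Prdm16*, -2.03 to 0.49 for *Etv6* A_52_P127358, -0.45 to 0.24 for A_52_P597800, -1.20 to 0.051 for *Gfi1* and -0.22 to 0.20 for *Ndn*. After normexp the sign turned for *Prdm16* (0.15) and *Ndn* (0.16). *Ndn* was also above 0 after median (0.077) and quantile scaling (0.059). The cause was not tested. No adjusted p under 0.05 was found for any of 22007 probes by limma with genotype alone (618 had an unadjusted p under 0.05, and 528 by the methods' t-test), and 50 with the block. Dim probes, *Prdm16* among them, rest on signals near background.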
